A study of Mus musculus with 47 samples.

Results

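The cytosolic ribosome is built from ribosomal RNA and a fixed set of ribosomal proteins. The genes for those proteins are described here in inguinal white adipose tissue (iWAT) of mice fed β-carotene (BC). This depot was taken as the subcutaneous fat of the groin and the dorsolumbar region. Members were all array genes named Rpl or Rps with a number and at most 2 further letters, together with Rplp0, Rplp1, Rplp2 and Rpsa. The rule found 80 genes, 48 of the large and 32 of the small subunit, which were represented by 132 of the 41174 probes. Wild-type (WT) mice and Bcmo1-null mice, which lack the enzyme that cleaves BC into retinal, were compared in both sexes, on a control diet or a BC diet. Each of the 47 arrays held the iWAT RNA of 1 mouse, labelled with Cy5, against a common RNA pool labelled with Cy3. There were 6 mice in each of the 8 groups, except for WT males on the BC diet, of which there were 5.

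All mice were of the mixed C57/BL6;129Svj background and were sampled at 19 weeks of age, after 14 weeks on the diet. Per the labels, which hold for both sexes, the diets had 1500 IU vitamin A per kg and 10% of energy as fat, and the BC diet had 150 mg BC per kg. The null mice were a line of their own and the WT controls an F1 of that mixed background, so that the null allele cannot be told apart from other differences between the lines. The null allele was carried in all tissues, and the depot was excised whole, although a lobule of some mice was fixed for histology, so that adipocytes, vessels, immune cells, lymph node and, in females, mammary epithelium could all contribute RNA. In such samples fewer cells of a type and less RNA per cell cannot be told apart.

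Ribosomal protein genes are transcribed at high rates in all nucleated cells, and their products are assembled with ribosomal RNA in the nucleolus in matched amounts. Their mRNAs typically start with a C followed by a run of pyrimidines, the 5′ terminal oligopyrimidine (TOP) tract, which places their translation under control of the mTORC1 kinase. A few members are paralogs with a pattern of their own, among them Rpl3l, which replaces Rpl3 in striated muscle.

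The annotated start of transcription of 7 members is shown because the tract that defines TOP mRNAs is looked for there. The annotated base need not be the exact start, and a second annotated start of Rps27l and of Rpl3l is not shown. The windows run from 10 bases before to 20 bases from the RefSeq start on the GRCm38.p6 build, on the strand of the gene, and the capitals mark the longest run of pyrimidines in the window. The first 4 are members that changed with the others, and the last 3 are the paralogs Rps27l, Rpl36al and Rpl3l, which varied little or in another way.
Rps6, chr4:86857348-86857377, minus strand: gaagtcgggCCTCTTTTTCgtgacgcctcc
Rps27, chr3:90213629-90213658, minus strand: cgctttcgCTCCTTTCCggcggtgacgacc
Rpl28, chr7:4792955-4792984, plus strand: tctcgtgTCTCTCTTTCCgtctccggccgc
Rps26, chr10:128626487-128626516, minus strand: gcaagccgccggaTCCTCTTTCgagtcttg
Rps27l, chr9:66946076-66946105, plus strand: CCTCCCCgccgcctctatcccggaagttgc
Rpl36al, chr12:69184048-69184077, minus strand: ccgtcgctcaggttcagttccgaCTTCCgc
Rpl3l, chr17:24727816-24727845, plus strand: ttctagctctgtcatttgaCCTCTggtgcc

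A RefSeq promoter entry was found for 59 of the 80 members, with 71 starts in all, and 21 members had no entry. A C at the annotated start followed by at least 4 pyrimidines was present at 18.3% of the member starts and at 2.51% of all 32851 starts. Rps6, Rps27 and Rpl28 carried it, whereas Rps26, Rps27l, Rpl36al and Rpl3l did not at the annotated base. Within the 300 bases around the start, on either strand, the letters CCGGAAG were found at 35.2% of the member starts and 8.86% of all starts, GGGCGG at 59.2% and 35.7%, AAGATGG at 15.5% and 6.34%, and TATAAA at 8.45% and 13.6%. These matches are descriptions of the sequence and not evidence of a bound factor.

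The array placed most members among its brightest spots. Of the 132 probes, 124 passed the filter of a mean signal at least 2 times the local background in both channels, and all 80 genes kept a probe. The brightest kept probe stood for each gene, and its mean Cy5 intensity ranged from 761.1 for Rpl3l to 458334 for Rplp1, an acidic stalk protein. The next brightest were Rps23, Rplp2, Rpl37a and Rps14, at 421451, 418469, 382089 and 375565 intensity units, values that depend on the probe and do not rank transcripts. Rps23 alone had saturated spots, on 2 arrays. For 63 members the Cy5 value came from the low-laser scan on all 47 arrays.

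Xist, expressed from the inactive X chromosome, separated the sexes without exception, with a lowest log2 ratio of 0.32 in females and a highest of -4.55 in males. The probe for Bcmo1 was well above background on only 15 of the 47 arrays, so that it could not check the genotype labels. Adipoq, the adipocyte hormone adiponectin, was at 3087 to 9522 times background on all arrays. A mammary score, the median log2 ratio of 18 epithelial markers, ran from -1.70 to 1.64 in the 24 females and from -3.37 to -2.12 in the 23 males.

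The members moved together from mouse to mouse. The log2 ratio of Cy5 to Cy3 was used throughout, so that 0 is the level of the pool. The Pearson correlation of each member with the median of the other 79 had a median of 0.89 over the 47 mice, and it was above 0.9 for 36 and above 0.8 for 63 of the 80 genes. Rpl34, Rpl17 and Rps18 followed the median most closely, with r = 0.98, 0.97 and 0.97. Between pairs of members the median r was 0.77, against 0.32 between the 75 genes for mitochondrial ribosomal proteins on the same arrays. These values describe arrays that share the pool, the group differences and the normalization.

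A small number of members stood apart. Rpl3l had r = -0.35 with the other members and the widest spread of all, with an SD of 1.51 over the mice. Rpl21 had r = 0.12, Rps27l had 0.23, Rplp2 had 0.26, Rpl27a had 0.42 and Rpl36al had 0.44. The brightest probe of Rpl21 was dim, with a mean Cy5 of 1692, and the other kept probe correlated with it at r = -0.28. The smallest SDs were those of Rps27l with 0.18, Rpl21 with 0.23 and Rpl36al with 0.24. Rpl5 and Rps7, which both bind Mdm2 when ribosome assembly is disturbed, had the next largest SDs after Rpl3l, of 0.70 each.

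**Figure D1:**
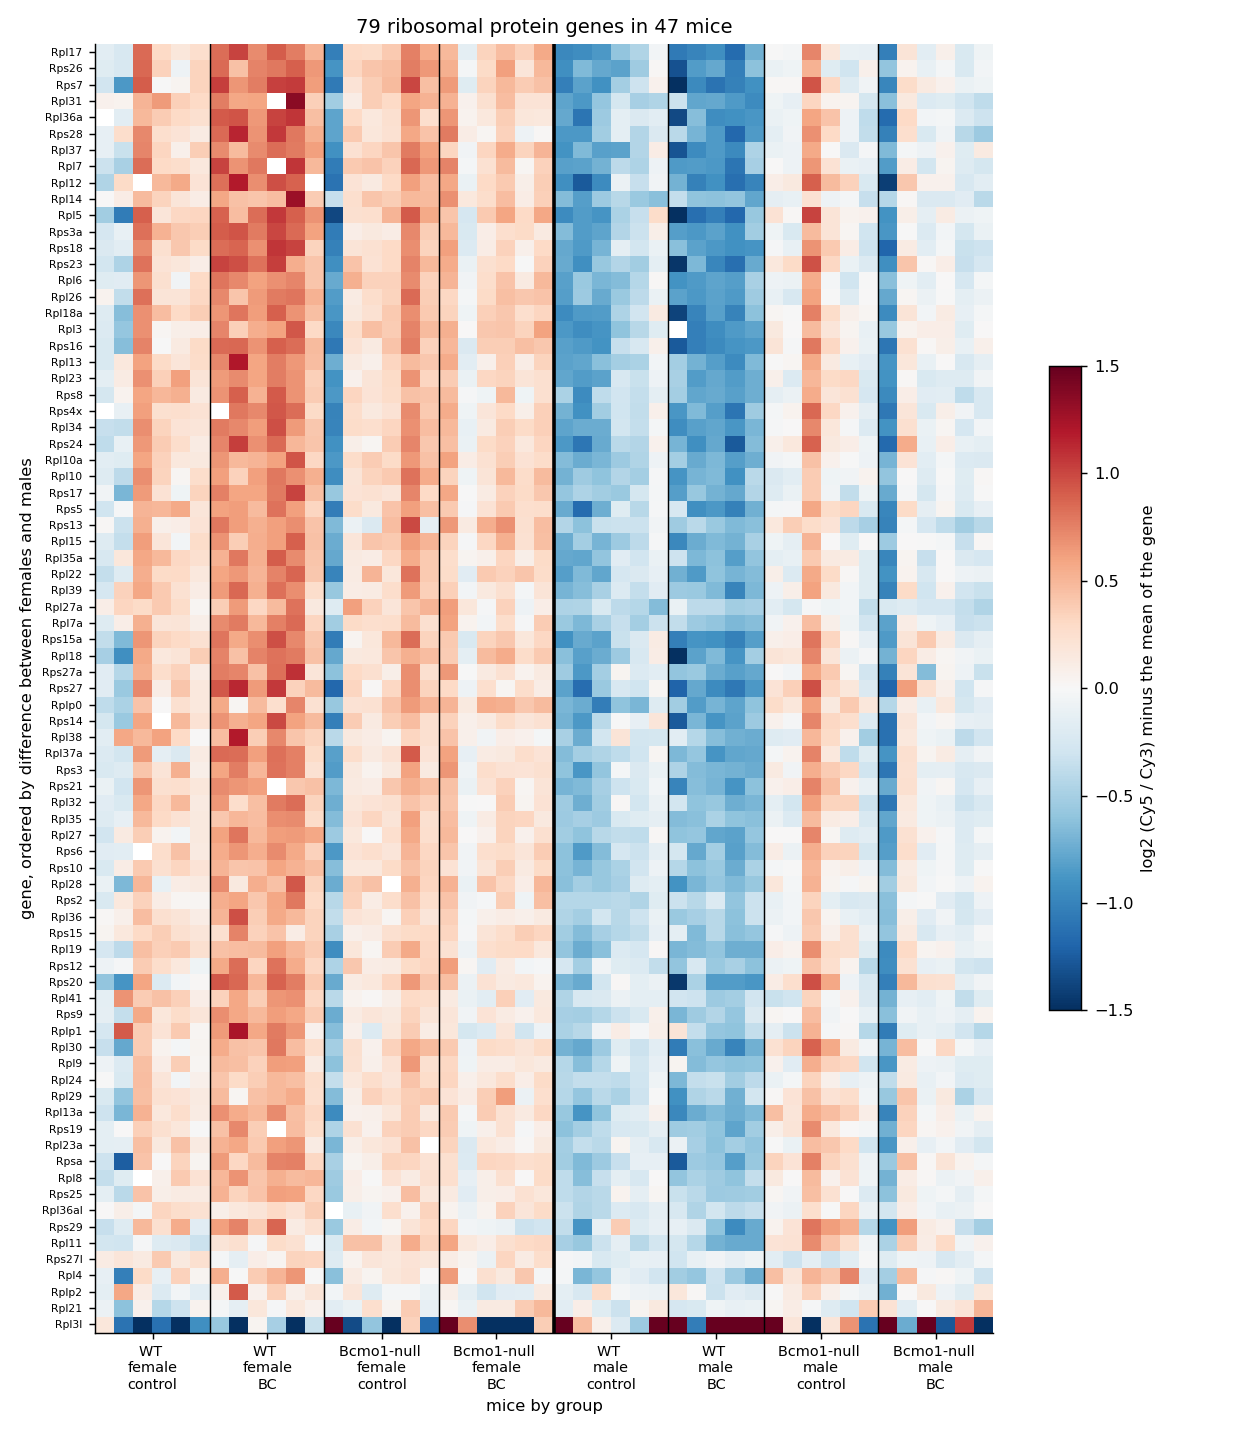
Log2 Cy5/Cy3 ratio minus the mean of the gene for 79 of the 80 ribosomal protein genes (rows, ordered by the difference between the sexes) in the 47 mice (columns, by group), from blue (low) to red (high), capped at 1.5 in both directions, with flagged spots in white. Most rows share 1 pattern, and Rpl3l, whose values exceed the colour range, Rps27l and Rpl21 do not.

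The median log2 ratio of the 80 members gave each mouse a member score. In WT females on the control diet the score ran from -0.10 over a median of 0.28 to 0.65, and on the BC diet from 0.47 over 0.72 to 0.81. In Bcmo1-null females it ran from -0.63 over 0.34 to 0.68 on the control diet and from 0.04 over 0.34 to 0.55 on the BC diet. The BC-fed WT females therefore lay at the top of the female range, and all female groups overlapped, WT and null mice on BC only between 0.47 and 0.55.

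In males the score lay lower. WT males ranged from -0.55 over -0.34 to 0.03 on the control diet and from -0.65 over -0.54 to -0.49 on the BC diet. Bcmo1-null males ranged from -0.01 over 0.16 to 0.68 on the control diet and from -0.68 over -0.01 to 0.27 on the BC diet. The 5 BC-fed WT males were the tightest group, with an SD of 0.06, and all of them lay below every female except 1 Bcmo1-null female on the control diet.

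**Figure D2:**
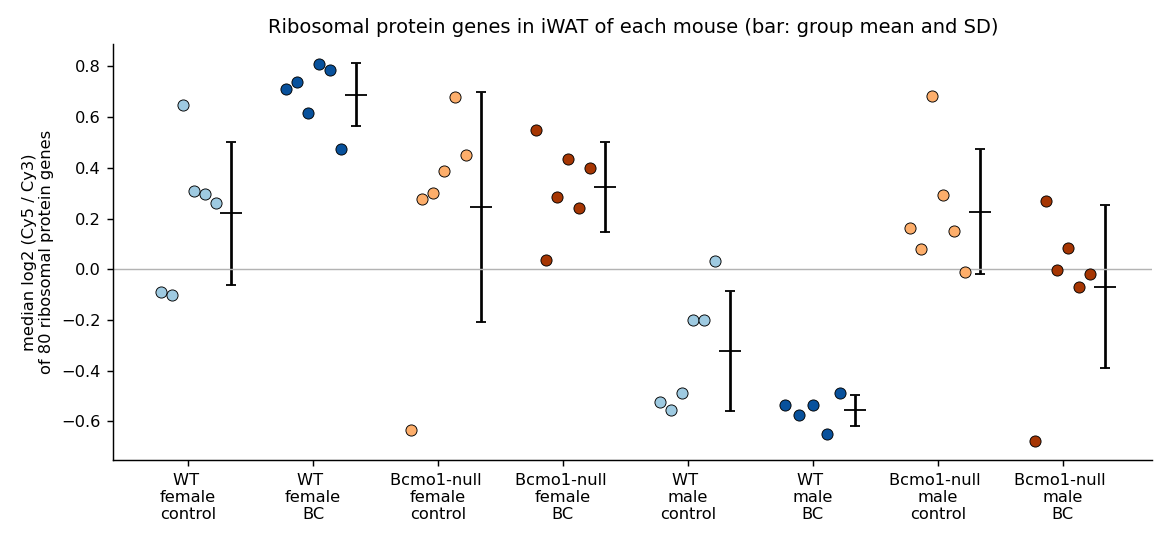
Member score, the median log2 Cy5/Cy3 ratio of the 80 ribosomal protein genes, for each of the 47 mice (points) by group, with the mean and SD of each group (bar beside the points). BC-fed WT females lie between 0.47 and 0.81 and BC-fed WT males between -0.65 and -0.49.

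In WT females, 24 of the 80 members were higher in BC-fed than in control-fed mice (unadjusted p under 0.01) and none were lower. The median difference of the members was 0.47 on the log2 scale, 79 of the 80 differences were positive, and the median over all 14546 genes was close to 0. Of all genes, 2.44% were higher and 6.7% lower at the same threshold. After Benjamini-Hochberg adjustment in limma, Rps20 and Rpl27 remained, where 0.055% of all genes were higher. The small subunit had 13 of 32 genes called and a median of 0.53, and the large subunit 11 of 48 and 0.44.

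Rps20, a protein of the small subunit head, had a log2 ratio of -0.54 to 0.92 (median 0.22) in the 6 WT females on the control diet and of 0.73 to 1.27 (median 1.15) in the 6 on the BC diet. The difference was 0.91 ± 0.21 (SE), with a 95% confidence interval of 0.47 to 1.34 and a limma adjusted p of 0.0453. The ranges of the groups overlapped, and 4 of the 6 BC-fed females lay above all controls.

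Rpl27, a large subunit protein, ran from -0.11 to 0.54 (median 0.27) on the control diet and from 0.66 to 0.97 (median 0.79) on the BC diet. The groups were fully separated, with a difference of 0.56 ± 0.14 and a limma adjusted p of 0.0467. Rpl8, Rps10 and Rpl12 were separated as well, making 4 such members, where 0.399% of all genes were higher without overlap. Rpl12, for which 22 of the 24 female arrays gave a value, differed by 0.69 with a limma p of 0.0104.

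Rps7, a small subunit protein, differed by 0.84 ± 0.27, Rps16 by 0.72 ± 0.23 and Rps23, which lies at the decoding centre, by 0.71 ± 0.22, with limma adjusted p of 0.0854, 0.0888 and 0.0827. In each of these 3 genes the BC-fed mice had a high and narrow range, from 0.68 to 1.11 for Rps16, while the controls spread from -0.43 to 0.95. Rpl37a was higher by 0.71, Rpsa, the laminin receptor homologue, by 0.67 and Rpl11, which like Rpl5 signals to p53, by 0.37, all at an unadjusted p under 0.01.

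Other well known members lay close to the same size without passing the threshold. Rpl5 differed by 0.78 ± 0.31 with a limma p of 0.0186, Rps6, the ribosomal target of S6 kinase, by 0.46 ± 0.17 with 0.0146, and Rplp0, the stalk base protein, by 0.38 ± 0.18 with 0.0411. Rps4x, the X-linked copy of Rps4, differed by 0.47 ± 0.22 with 0.0469. Rps27l was the only member below 0, at -0.10 ± 0.09 (95% confidence interval -0.28 to 0.09). Rpl36al differed by 0.07 ± 0.09, so that changes of the median size of the members lay outside the intervals of both paralogs.

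The size of the female difference depended on the normalization. With each array centred on its median in place of loess, the median of the members fell to 0.20 and none of the 80 passed. The loess fit adjusts for signal intensity, and most members are bright. Among 1229 other probes read on most arrays from the low-laser scan, the median difference was -0.06, and 75 were higher and 116 lower. Among the 82 member probes read from that scan on all arrays it was 0.50, with 31 higher and none lower.

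The direction was the same within slides. In 5 of 5 slides that held WT females of both diets the member score was higher on BC, by 0.21 to 0.84. The count of members called was 43 when the fit held no other groups, and it rested on single mice. It was 12 without WT control female 1 or without BC-fed WT female 4, 13 without control female 2, 47 without control female 3, and 60 without Bcmo1-null control female 1, which enters only the shared spread.

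**Figure D3:**
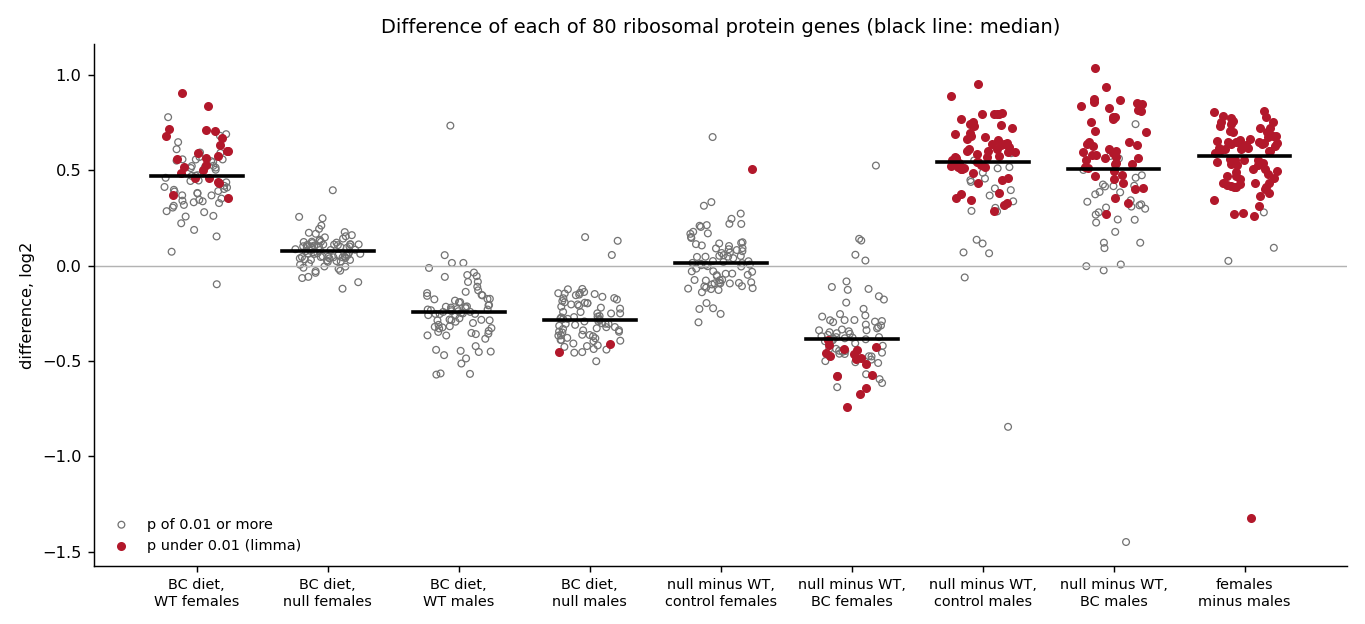
Log2 differences of the 80 ribosomal protein genes (points) in 9 comparisons (horizontal axis), filled where the limma p was under 0.01, with the median of the members as a black line. The members lie above 0 for the BC diet in WT females, the genotype difference in males and the sex difference, with medians of 0.47, 0.54, 0.51 and 0.58, and below 0 for genotype in BC-fed females, with a median of -0.38.

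In Bcmo1-null females no member passed in either direction between the diets, where 0.179% of all genes were higher and 0.22% lower. The median of the members was 0.08, and the score was higher on BC on 2 of 5 slides. Rps20 had a difference of 0.00 ± 0.21 (95% confidence interval -0.43 to 0.44) and Rpl27 of 0.08 ± 0.14 (-0.20 to 0.36). The interval of Rps20 does not reach the value seen in WT females, whereas for Rps6 (-0.20 to 0.48) it does.

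The interaction, coded as the diet effect in WT minus that in Bcmo1-null females, had a median of 0.40 over the members. A single member, Rps20, passed p under 0.01, at 0.90 ± 0.30 with a limma adjusted p of 0.377, where 0.316% of all genes were higher and 2.19% lower. Without Bcmo1-null control female 1, whose score of -0.63 was the lowest among females, 49 members passed and the median was 0.57. For Rpl27 the interaction was 0.48 ± 0.19 with a limma p of 0.021 and an adjusted p of 0.442.

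On the control diet the female genotypes differed little, with a median of 0.01 over the members. Rpl11 alone passed, with values of 0.01 to 0.32 (median 0.09) in WT and of 0.11 to 0.89 (median 0.72) in Bcmo1-null females. It was higher by 0.51 ± 0.11 in the null mice with a limma adjusted p of 0.0114, where 2.06% of all genes were higher and 2.64% lower at p under 0.01, and 0.887% higher after adjustment. The groups overlapped through 1 low null female. The other kept probe of Rpl11 gave 0.10 ± 0.13 for this comparison, with a limma adjusted p of 0.896. Its mean Cy5 was 671.6, against 339211 for the brightest probe.

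On the BC diet, 16 of the 80 members were lower in Bcmo1-null than in WT females and none were higher, and 5 were lower after adjustment. Of all genes, 3.67% were lower and 6.52% higher at p under 0.01, and 1.84% were lower after adjustment. The median of the members was -0.38 and 75 of the 80 were negative. Rplp1 had the largest difference, from 0.65 to 1.81 (median 1.24) in WT to 0.28 to 0.77 (median 0.45) in null females, or -0.74 ± 0.19 with a limma adjusted p of 0.0234.

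The others after adjustment were Rps28 with -0.64 ± 0.19, Rps29 with -0.57 ± 0.17, Rpl41, which encodes one of the shortest known proteins, with -0.46 ± 0.13, and Rpl36 with -0.42 ± 0.11. Their limma adjusted p values were 0.0489, 0.0498, 0.0439 and 0.0327. Rpl36 ran from 0.35 to 0.98 in WT and from -0.01 to 0.38 in null females, a small overlap. In all, 12 members had every null female below every WT female, where 1.43% of all genes did. Because this contrast shares the BC-fed WT females with the diet contrast, the 2 are not independent.

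Here too centring on the median changed the count, to 1 member higher and none lower, with a median of -0.12. Within slides the score was lower in null females on 5 of 5 slides, by -0.50 to -0.04. The count was 8 with slide as a block, 54 when the fit held no other groups, 7 without BC-fed WT female 2 and 38 without Bcmo1-null control female 1. With the lymph node and mammary scores as covariates 4 members passed, 3 of them lower. Of 9 markers of brown and beige adipocytes, 8 were lower in the null females, by a median of -1.21. On the control diet, where the members differed little, the median score of these markers was 0.28 in WT and -0.94 in null females. Within groups this score had r = -0.12 with the member score over the 24 females. The part of these markers in the result was not tested.

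In males the BC diet was followed by lower values that mostly did not pass. In WT males no member passed, where 0.0279% of all genes were lower and 0.0838% higher, and the median of the members was -0.25. The score was higher on BC on 1 of 5 slides in WT males and on 1 of 5 in null males. In Bcmo1-null males Rps13, a small subunit protein, was lower by -0.45 ± 0.15 and Rplp0 by -0.41 ± 0.12, where 0.272% of all genes were lower and 0.202% higher, and neither passed adjustment in limma (0.983 for both). The median was -0.28, and 11 members passed without BC-fed null male 2. Under median centring the median in WT males was 0.04, where the median of all genes also moved upward. The sign of the members' median is therefore not settled, although it lay below that of all genes under both settings. No member passed for the male interaction of genotype and diet, where 0.0698% of all genes were higher and 0.0419% lower, and the median was 0.04.

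The genotypes differed widely in males. On the control diet 59 of the 80 members were higher in Bcmo1-null than in WT males and none were lower, 63 after adjustment, where 17.1% of all genes were higher and 11.8% lower at p under 0.01, and 18.6% higher after adjustment. On the BC diet it was 47, and 54 after adjustment, where 15.5% of all genes were higher and 12% lower at p under 0.01, and 17% higher after adjustment. The medians of the members were 0.54 and 0.51. With slide as a block 20 members passed on the control diet, and with median centring 14 on the BC diet. Within slides the score was higher in null males on 3 of 4 slides on the control diet, by -0.04 to 0.63, and on 4 of 5 on the BC diet, by -0.10 to 0.80. With both subunits alike, 37 of 48 large and 22 of 32 small subunit genes were called on the control diet.

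Rplp0 had the largest difference on the control diet. It ran from -1.20 to -0.36 (median -0.84) in WT and from -0.01 to 0.45 (median 0.06) in null males, with no overlap, and differed by 0.95 ± 0.12 with a limma adjusted p of 1.27e-05. Rpl12 differed by 0.89 ± 0.25, Rps27 by 0.80 ± 0.24, Rpl5 by 0.80 ± 0.22 and Rpl30 by 0.80 ± 0.17, with limma adjusted p from 0.00176 to 0.0149. In total 14 members had no overlap between the genotypes, where 6.62% of all genes were higher without overlap.

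On the BC diet Rps7 differed by 1.04 ± 0.23, from -1.46 to -0.62 (median -0.73) in WT to -0.68 to 0.57 (median 0.29) in null males. Rpl5 followed with 0.94 ± 0.23, Rps27 with 0.87 ± 0.25, Rps16 with 0.87 ± 0.21 and Rpl18 with 0.86 ± 0.21, and limma adjusted p lay between 0.00267 and 0.0124. The lowest null value in Rps7 was that of BC-fed null male 1, and 4 members had no overlap, where 6.18% of all genes were higher without overlap.

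Lymph node markers moved with this difference. All 17 lymphocyte markers kept in the male fit were higher in null males on both diets, by a median of 2.51 on the control diet and 2.72 on the BC diet, and 12 of 15 macrophage markers were higher. The lymph node score, the median log2 ratio over the 18 such markers kept over all arrays, ran from -3.03 to 0.33 in WT control males, from -3.21 to -1.33 in BC-fed WT males, from 0.47 to 1.36 in null control males and from -2.33 to 0.96 in BC-fed null males. Adipocyte markers were lower in null males in 5 of 15 cases on the control diet and 3 of 15 on the BC diet. Of all genes, 11.8% and 12% were lower. The adipocyte score ran from 0.37 to 0.61 in WT and from -0.06 to 0.32 in null males on the control diet, without overlap, and from 0.28 to 0.63 and -0.11 to 0.33 on the BC diet, and its part in the result was not tested. With the lymph node score as a covariate, an alternative chosen after seeing the data, 4 members passed on the control diet and 0 on the BC diet, with medians of 0.12 and 0.04. On the control diet the lymph node score did not overlap between the genotypes. On the BC diet only null male 1, at -2.33, lay within the WT range. Genotype and lymph node content therefore cannot be told apart in these males, and this fit cannot divide the difference between them. Whether lymph node tissue was dissected with the pad is not given in the sources used here.

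The males were divided at the widest gap in this score, between -1.33 and -0.55, so no correlation across all males is given. Within groups of genotype and diet, r with the member score was 0.80 over the 23 males and rho was 0.76. Without the 2 farthest mice that r was 0.67. Over the 24 females r within groups was 0.35. The 9 males with scores of -3.21 to -1.33 were all 5 BC-fed WT males, 3 WT controls and 1 BC-fed null male, and their member scores lay between -0.68 and -0.49, with r = 0.05 (-0.30 without the 2 most extreme). The 14 males with scores of -0.55 to 1.36 were 3 WT controls, 6 null controls and 5 BC-fed null males. Their member scores lay between -0.20 and 0.69 and rose with the lymph node score, with r = 0.84 and rho = 0.71. Once the 2 mice with the most extreme lymph node scores were left out, r was 0.72. The 3 WT controls had the lowest lymph node scores of these 14, so that r also holds the difference between the genotypes. Their member scores were -0.20 to 0.03, against -0.55 to -0.49 in the 3 WT controls of low score and -0.65 to -0.49 in BC-fed WT males. Because all BC-fed WT males had low scores, diet and lymph node content cannot be fully told apart in WT males. In females the 8 with low scores had member scores of -0.63 to 0.78 and r = -0.62, and the 16 with high scores 0.24 to 0.81 and r = 0.31. Left without the 2 most extreme mice, these became -0.13 and -0.02.

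**Figure D4:**
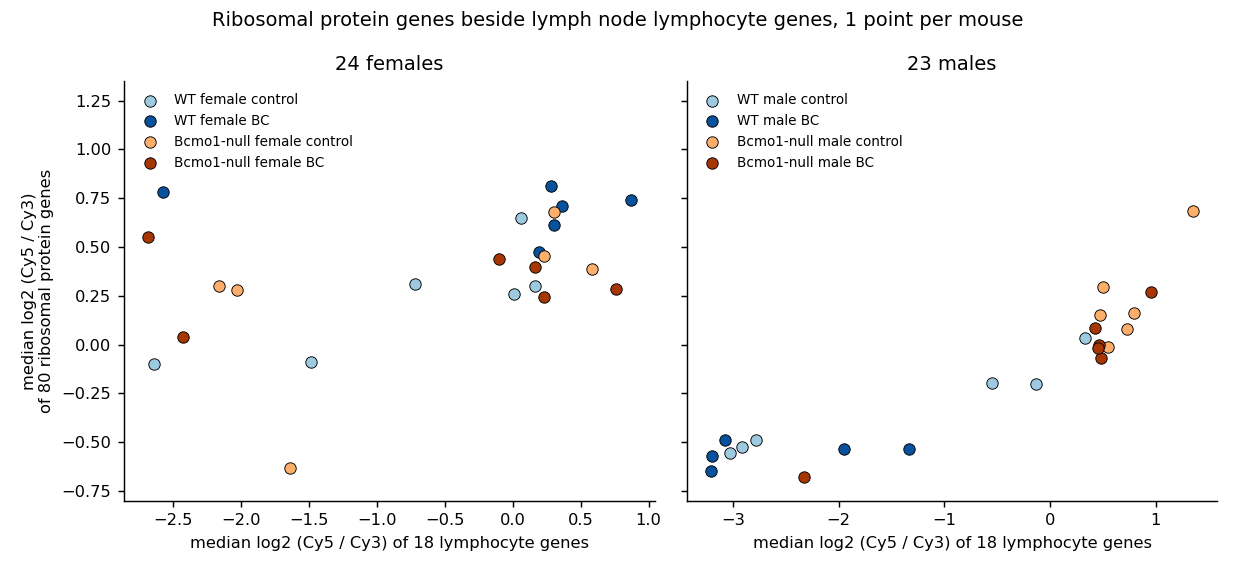
Member score (vertical axis, median log2 ratio of the 80 ribosomal protein genes) against the lymph node score (horizontal axis, median log2 ratio of the lymphocyte markers) for each female and male mouse, by group. Males with low lymph node scores have member scores from -0.68 to -0.49, and the remaining males lie above them.

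In WT females the lymph node markers were not different between the diets at p under 0.01, 0 of 18, although their median was 0.71, and the mammary markers, 0 of 18, had a median of 0.33. With the lymph node score as a covariate 20 members were called for the diet, and with both scores 15. In the females of higher lymph node score alone, another alternative chosen after seeing the data, 18 were called for the diet, 38 for genotype on the BC diet and 17 for the interaction. Adipocyte markers fell in 3 of 15 cases, where 6.7% of all genes were lower, and had a median of -0.29. Across the 47 mice the member score and the adipocyte score had r = -0.78, within groups -0.41, and the part of the markers in the members' values was not tested beyond these covariates.

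Averaged over genotype and diet, females exceeded males in nearly all members. With the mean of the 4 female groups set against the 4 male groups, 76 of the 80 were higher in females and 1 was lower, where 25.5% of all genes were higher and 21.9% lower. After adjustment 77 were higher and 1 lower, where 28.4% and 24.8% of all genes passed. The median of the members was 0.58, against 0.02 over all genes. The size of this difference varied between the groups. Mean member scores of females and males were 0.22 and -0.32 in WT controls and 0.69 and -0.56 in BC-fed WT mice. In null mice they were 0.24 and 0.23 on the control diet, including control female 1 at -0.63, and 0.32 and -0.07 on the BC diet.

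The largest differences were those of Rpl17 with 0.81 ± 0.11, Rps26 with 0.81 ± 0.10, Rps7 with 0.78 ± 0.13, Rpl31 with 0.78 ± 0.08 and Rpl36a, an X-linked gene, with 0.77 ± 0.10, and limma adjusted p for Rpl31 was 5.77e-11. Rpl31 ran from -0.65 to 1.23 over all females and from -1.07 to 0.20 over all males. Rpl21 and Rplp2 did not pass, and Rps29, at 0.28, passed only after adjustment, with a limma adjusted p of 0.029. The other kept probe of Rpl21 gave 0.15 ± 0.05 with a limma adjusted p of 0.00995. The muscle paralog Rpl3l was lower in females by -1.32 ± 0.39, with a limma adjusted p of 0.00446, and had medians of -1.86 and -1.28 in WT females on the control and BC diets and of -0.48 and 1.23 in WT males. All 20 muscle markers were lower in females, 16 of them at p under 0.01.

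The mammary markers, 18 of 18 higher in females by a median of 3.66, separated the sexes completely, so that sex and mammary tissue cannot be told apart. With the lymph node score alone as a covariate 76 members were higher in females and 1 lower, and with the mammary score in addition 1 passed and the median was -0.42. Adipocyte markers were lower in females in 9 of 15 cases. Of the 4 slides that held both sexes, 3 had a higher member score in females, with differences from -0.18 to 1.04. On these 3 slides the sexes were not matched by genotype and diet, so that their values mix sex with both. The slide with -0.18 held 2 null females and 2 null males on matching diets.

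The diet effects of the sexes differed in WT mice. The diet effect in WT females minus that in WT males had a median of 0.71 over the members, and 48 of the 80 passed at p under 0.01, all with the larger value in females, where 3.39% of all genes did and 5.83% had the larger value in males. After adjustment 8 passed, where 0.172% of all genes did. Rps20 had the largest value, 1.48 ± 0.33 with a limma adjusted p of 0.0281, from 0.91 in females and -0.57 in males. Rps7 followed with 1.41 ± 0.37, Rpl37a with 1.07 ± 0.28, Rpsa with 1.03 ± 0.27 and Rpl30 with 0.98 ± 0.25. The other kept probes of Rps20 and Rpsa, both dim with a mean Cy5 of 308.3 and 373.7, gave -0.09 ± 0.11 and 0.10 ± 0.19.

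Rpl27 and Rpl8 had 0.85 and 0.71. In males each of the 8 genes had a negative difference, -0.22 to -0.57, which did not pass on its own. Centred on the median of each array, no member passed and the median was 0.12, while that of all genes moved downward. With the lymph node score as a covariate 20 members passed, and with the mammary score in addition 14. The BC-fed WT males all had low lymph node scores, so that these fits cannot fully divide diet from lymph node content in males.

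Members with several probes allowed a check within the arrays. There were 44 further kept probes for 34 genes, and their log2 ratios followed those of the brightest probe with a median r of 0.94 over the mice. For the BC diet in WT females the median difference was 0.36 for the further probes and 0.49 for the brightest. The 11 further probes with a mean Cy5 signal under 2000 had a median of 0.18 and a median r of 0.62, and the brighter ones 0.42 and 0.97.

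The second probe of Rps20, with a mean Cy5 of 308.3, showed 0.01 where the brightest showed 0.91. Rpl21 and Rps19 had a probe of opposite sign, at -0.00 against 0.26 and at -0.11 against 0.35. The Rps20 probe pair correlated with r = 0.03, the Rps19 pair with r = 0.11 and the Rpl21 pair with r = -0.28. The level of these genes therefore rests on which probe is read. Rps3a had a second probe at -1.12 against -0.68 for genotype in BC-fed females, and at 0.03 against 0.51 in control males.

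**Figure D5:**
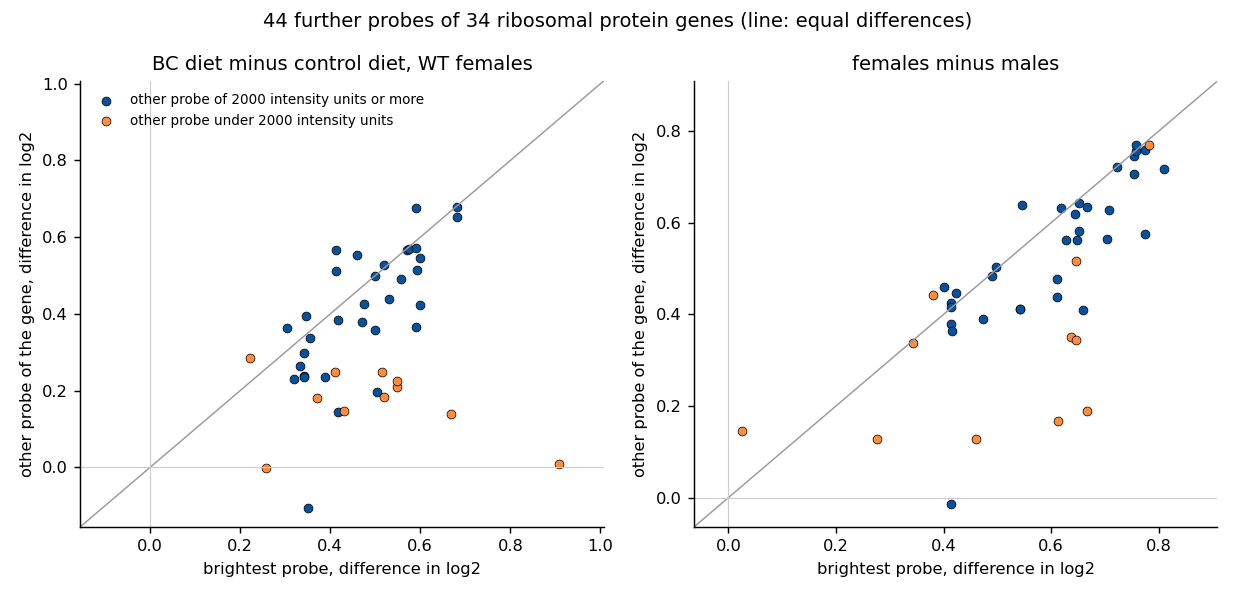
Log2 difference between BC-fed and control WT females (left) and between females and males (right) for each of the 44 further kept probes (vertical axis) against the brightest probe of the same gene (horizontal axis), with the line of equal differences and probes under 2000 intensity units in orange. For the diet the dim probes have a median of 0.18 and the others of 0.42.

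Further genes of translation, taken from a list of TOP genes, changed in the direction of the members. Of these 15 genes, 10 were higher on BC in WT females and none lower, with a median of 0.45. Of all genes, 2.44% were higher. The starts of the 15 genes were not read here. Pabpc1, the poly(A)-binding protein, differed by 0.62, Eef1g and Eef1d, subunits of elongation factor 1, by 0.45 and 0.40. The median of these genes in each mouse had r = 0.97 with the member score over the 47 mice, within groups 0.93. Of ribosomal protein genes listed under other names, 4 of 6 were higher, among them Arbp, the older name of Rplp0, with 0.61, where the probe named Rplp0 gave 0.38, Rpl22l1 with 0.67 and Gnb2l1, the scaffold protein Rack1, with 0.69.

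Of 30 ribosome biogenesis genes, 3 were higher and 1 lower, where 2.44% and 6.7% of all genes were, with a median of 0.07. Their median in each mouse had r = 0.70 with the member score over the 47 mice, within groups 0.41. The 3 were Ncl (nucleolin) with 0.71, Fbl (fibrillarin) with 0.47 and Nob1, which matures 18S rRNA, with 0.36. Of 19 regulators of mTORC1 and Myc, none were higher and 1, the mTORC1 activator Rheb, was lower by -0.22, where 6.7% of all genes were lower, while Myc itself, at 0.71, and Tsc2, at -0.25, did not pass.

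Mitochondrial ribosomal protein genes had a median below 0. Of 75 genes, 12 were lower on BC in WT females and none higher, where 6.7% of all genes were lower, with a median of -0.12, and Mrps6, Mrpl27 and Mrps21 differed by -0.54, -0.27 and -0.26. In each mouse their median had r = -0.51 with the member score within groups. The members with a C and pyrimidine run at the annotated start had a median diet effect of 0.41 (13 genes), those without of 0.47 (46 genes) and those with no promoter entry of 0.52 (21 genes). These classes depend on the exact annotated base. Rpl27a and Rpl7a, with runs of 20 and 17 pyrimidines across it, count as without, so that the medians cannot divide TOP from other members.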

How the data were processed

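RNA of 47 single mice was hybridised against a pool on two-colour arrays without dye swap. Per the file headers, spots were quantified with Feature Extraction 9.5.3.1 (probe annotation mm8), and the deposited intensity values are median signals with local backgrounds, bright spots being taken from a low-laser scan. The log10 ratios deposited by the authors equalled the LogRatio of the scanner files (tolerance 1e-08) and were not used further.

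In limma 3.58.1 (R 4.3.3), signals were corrected with normexp (offset 50) and each array was loess-normalized, giving log2 Cy5/Cy3 ratios. Probes with mean Cy5 and Cy3 of at least 2 times background were fitted over 24 female, 23 male or all 47 arrays without covariates, with 1 shared estimate of spread. The brightest kept probe stood for a gene. Calls used an unadjusted p under 0.01 beside a Benjamini-Hochberg adjusted p under 0.05 over all kept probes. Scripts were tested on simulated data. Mice were housed 3 to a cage, but which mice shared a cage or litter is not given in the sources used here, so that p-values treat mice as independent, and the number of mice limits the precision.

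Members and lists were chosen with earlier results of these data known. Named were, per contrast, up to 5 called members in each direction by size, the brightest, most and least variable members, paralogs, textbook members, those with discordant probes, Rps20 and Rpl27, and up to 3 genes per pathway list by p in WT females. Rps18, Rpl34, Rps10, Rpl8, Rpl27a and Rpl28 were named after their values were seen, and 1 member is counted but not reported here by itself. Alternatives were other background corrections, normalizations, filters, probe choices, arrays in the fit, covariates, blocks for slide or replicate number, the methods' test and leaving out each mouse.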

Additional observations from a re-analysis of the deposited data

Results flagged for a closer look

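In several groups 1 mouse lay apart from the others by more than Dixon's limit. This was so in 37 of 240 groups tested over 30 items, where chance flags about 5 percent, or 1 in 20 groups. Because the members share their mice and vary together, these results are not independent. In the member score the mice were Bcmo1-null control female 1, at -0.63, and BC-fed Bcmo1-null male 1, at -0.68.

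Bcmo1-null control female 1 was the lowest of its group in 14 named members. The log2 ratios were -0.82 for Rpl12, -0.84 for Rpl17, -0.87 for Rpl18, Rpl36a and Rps16, -1.12 for Rpl5 and -0.72 for Rplp0. They were -0.47 for Rps23 and Rps28, -0.96 for Rps26, -0.83 for Rps27 and Rps6, -0.76 for Rps4x and -0.67 for Rpsa.

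BC-fed Bcmo1-null male 1 was low in Rpl12 with -1.11, Rpl17 with -0.84, Rpl37a with -0.52, Rpl5 with -0.65, Rplp1 with -0.46, Rps16 with -0.88, Rps4x with -0.83 and Rps7 with -0.68. Bcmo1-null control male 3 was high in Rpl17 with 0.91, Rpl18 with 0.63, Rpl27 with 0.90, Rpl36 with 0.42 and Rpl5 with 1.26. BC-fed Bcmo1-null female 2 was low in Rpl17 with 0.03, Rpl5 with -0.002, Rplp0 with -0.02, Rps16 with -0.01, Rps7 with 0.11 and Rpsa with -0.39. BC-fed WT female 2 was high in Rpl36 with 0.98, and BC-fed WT male 1 was low in Rps7 with -1.46.

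The diet effect differed between WT females and WT males, by the interaction term in limma at an adjusted p under 0.05, in 8 members. Among the differences were 1.48 for Rps20, 1.41 for Rps7, 1.07 for Rpl37a, 1.03 for Rpsa, 0.98 for Rpl30, 0.85 for Rpl27 and 0.71 for Rpl8. The females and males were hybridised mostly on different slides.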

How the results depend on the processing

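Counts are of members at p under 0.01, in the order of the report, and medians are log2 values. Under median centring, which moved the median of all genes by 0.12 for diet in WT males, 0.13 for genotype in control males, 0.15 for the male and -0.15 for the sex by diet interaction, no member was called for diet in WT females, genotype in control females, the female interaction, diet in null males or sex by diet. In BC females 1 and in BC males 14 were called, and the medians were 0.20 for diet in WT females, -0.12 for genotype in BC females, 0.045 for the female and 0.37 for the male interaction, 0.038 for diet in WT males and 0.12 for sex by diet. Without normalization, 0 were called for diet in WT females, for genotype in both female groups and for the female interaction, 10 for diet in null males and 2 for sex by diet. Agilent's processed signals gave 14 for diet in WT females and 0 for the female interaction, and the Cy5 channel alone 0 for the female interaction, 1 for the male interaction and 26 for sex by diet.

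With both cell scores as covariates, the counts were 15 for diet in WT females, 13 and 4 for genotype in control and BC females, 15 for the female interaction, 4 and 0 for genotype in control and BC males, 1 for the male interaction, 1 for sex and 14 for sex by diet, and the medians were -0.10 in BC females, 0.106 and 0.038 in control and BC males, -0.42 for sex and 0.37 for sex by diet. The sex difference of 5 named genes then turned, to -0.43 for Rpl17, -0.27 for Rps26, -0.30 for Rps7, -0.45 for Rpl31 and -0.27 for Rpl36a. The mammary score separated the sexes completely, and the lymph node score the genotypes in control males. Fits with these scores cannot tell such effects apart, so that the turned signs cannot be read as a reversed sex difference. Alternatives chosen after seeing the data were the lymph node score alone, with 1 for diet in null males, 4 (median 0.12) and 0 (median 0.041) for genotype in control and BC males, 1 for the male interaction and 20 for sex by diet, and only mice of higher lymph node score, with 2 and 38 for genotype in control and BC females, 17 for the female interaction, 1 for diet in null males and 15 for genotype in control males.

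Only the groups compared in the fit gave 43 for diet in WT females, 54 for genotype in BC females, 2 for diet in WT males and 1 in null males, and all 47 arrays 39 and 0 for diet in WT females and null males. The methods' t-test gave 51 for genotype in BC females, 31 in BC males and 1 for diet in null males. Each kept probe counted gave 37 for diet in WT females, 3 and 26 for genotype in control and BC females, 4 for the female interaction, 95 and 74 for genotype in control and BC males and 119 for sex, of more probes. Probes averaged gave 1 for diet in null males. Slide as a block gave 8 for genotype in BC females, 3 and 1 for diet in WT and null males and 20 for genotype in control males, and as a random block 2 for the female interaction.

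The replicate numbers did not pair the mice (for diet in WT females r of -0.17 to 0.39, with 2 of 6 mice best with their own number), although 5 of these 6 pairs lay on the same slide. The replicate block gave 1 member for diet in WT males, and 28 for diet in WT females, 17 for genotype in BC females, 60 and 46 for genotype in control and BC males, 77 for sex and 53 for sex by diet.

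Without each mouse in turn, the counts ran from 12 to 60 for diet in WT and 0 to 1 in null females, 1 to 2 and 7 to 38 for genotype in control and BC females, 0 to 49 for the female interaction, 0 to 2 and 1 to 11 for diet in WT and null males, 44 to 69 and 36 to 66 for genotype in control and BC males, 0 to 1 for the male interaction, 76 to 78 for sex and 34 to 60 for sex by diet. The medians ran from 0.40 to 0.55, -0.11 to 0.16, -0.07 to 0.18, -0.43 to -0.34, 0.32 to 0.57, -0.30 to -0.19, -0.36 to -0.15, 0.45 to 0.62, 0.44 to 0.64, -0.09 to 0.11, 0.54 to 0.62 and 0.65 to 0.79, in the same order. Of 1699 settings for 35 named results, 1576 kept direction and call, 118 lost the call and 5 reversed, which were the 5 sex differences above. The cause of these changes was not tested. Signal over background limits Rpl3l and the dim further probes most.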
